A study of Mus musculus with 74 samples.

Results

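The nuclear-encoded subunits of the mitochondrial oxidative phosphorylation machinery were examined in microglia and in the remaining brain cells of mice with 2, 1 or 0 intact copies of Trem2, on control chow or on cuprizone. Members were the protein-coding genes of the deposited count table whose symbols begin with Nduf followed by a, b, c, s or v and a digit, Uqcr, Cox4 to Cox8 or Atp5, together with Sdha, Sdhb, Sdhc, Sdhd and Cyc1. This rule uses names only, and it gave 84 of the 49912 genes in the table, of which 21879 are protein-coding. Complex I had 37 members, complex II 4, complex III 9, complex IV 18 and complex V, the ATP synthase, 16. Assembly factors and the subunits encoded in mitochondrial DNA were not members and were counted as separate lists.

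Oxidative phosphorylation passes electrons from NADH, through complex I, and from succinate, through complex II, by way of ubiquinone to complex III, cytochrome c and complex IV, which reduces oxygen. Complexes I, III and IV pump protons across the inner mitochondrial membrane, and complex V uses the resulting gradient to make ATP. Complex IV, cytochrome c oxidase, carries copper in its catalytic core, and copper must be delivered to it during assembly. Cuprizone is a copper chelator that kills oligodendrocytes when fed to mice and causes demyelination, and microglia take up the myelin debris. Trem2 is a lipid-sensing receptor of microglia.

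The study used 37 mice, and each gave 1 library from viable Cd11b+ cells, called microglia, and 1 from all other viable cells of the whole brain, called nonmicroglia. The genotypes were Trem2 +/+, Trem2 +/- and Trem2 -/-. The diets were control chow or chow with 0.2% cuprizone for 5 weeks, which the study calls acute demyelination, or 12 weeks, which it calls chronic. Each fraction thus had 12 groups, with 3 animals in each except for 4 in both Trem2 +/- groups of 12 weeks and 2 in the Trem2 +/+ control group of 12 weeks. In each group 1 animal was male. P values measure only the spread between these animals. The labels give neither the age of the animals nor the nature of the Trem2 allele, and nonmicroglia is a mixture whose makeup can differ between animals. Libraries were made from the 3′ ends of polyadenylated RNA, so that a count is a tag near the end of a transcript.

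Microglia libraries held 1043961 to 3945694 counts (median 1782314) and nonmicroglia libraries 1255465 to 3441041 (median 1705753). Levels are given in CPM, each gene's count as a share of the library's effective total, scaled within a fraction by edgeR's trimmed mean of M values unless another scaling is named. All 11 microglia markers were higher in the microglia of Trem2 +/+ control animals than in their nonmicroglia, and 11 of 12 oligodendrocyte markers were lower. All 7 neutrophil and all 7 border macrophage markers were also higher in this fraction (medians 7.29 and 6.73, against 6.27 for the microglia markers), and their part in the differences between fractions was not tested. Trem2 itself was lower in Trem2 -/- than in Trem2 +/+ control microglia, by a log2 fold change of -2.26 ± 0.25 (standard error), but reads at the 3′ end need not lie in the deleted part, so this does not check the genotypes. The microglia libraries of 4 animals (7674, 945, 981 and 9145) and 2 nonmicroglia libraries (1930 and 9469) lay beyond 30 on the first principal component of all genes. Of these, 7674 and 9145 are 12-week controls of Trem2 +/- and Trem2 +/+, and their summed subunit levels in microglia, 6170 and 6873 CPM, were at the low end of the control range of 6170 to 12875.5 CPM. Without the 4 microglia libraries, 12 members were called over the genotypes at 5 weeks, as with them. At 12 weeks 3 were called over the genotypes in place of 11. In Trem2 +/- at 12 weeks 19 were called in place of 23, and 0 within Trem2 -/-. Without the 2 nonmicroglia libraries, no count in that fraction moved from 0. In sorted bulk samples, a lower level in all cells and a smaller share of cells with a high level cannot be told apart.

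In Trem2 +/+ control animals, most subunits made up a smaller share of the counts in microglia than in the other brain cells (both control times together, n = 5 animals, both fractions scaled together). The summed level of complex I was 3694 ± 751 CPM (SD) in microglia and 8612 ± 1946 CPM in nonmicroglia. Complex III had 1170 ± 227 against 2434 ± 563 CPM, complex IV 2042 ± 443 against 5824 ± 1098 CPM, and complex V 2708 ± 444 against 6198 ± 1260 CPM. For these 4 complexes, the lowest nonmicroglia library was above the highest microglia library. Complex II was the nearest to equal, with 485 ± 98 CPM in microglia, range 346 to 613, and 573 ± 37 CPM in nonmicroglia, range 534 to 616, which overlap.

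Of the 81 members tested in both fractions together, 53 were lower in microglia and 2 were higher, at an adjusted p under 0.05. Here and below, adjusted p values are from edgeR's quasi-likelihood test with Benjamini-Hochberg adjustment over all genes tested, and a log2 fold change is followed by its standard error. Of all 18408 genes tested, 17.8% were lower and 11.7% higher. The median difference of the members was -1.18 on the log2 scale (-1.23 with Ndufa4l2 and Cox7b2, each at 0 in all 5 libraries of 1 fraction, set to their bound), while the median of all genes was -0.24. Lower members numbered 25 of complex I, 6 of complex III, 12 of complex IV and 10 of complex V, and none of the 4 members of complex II passed edgeR's test. DESeq2 called 67 members, among them Sdhc of complex II, and limma-voom 49. Without animal 9145, 29 members passed in place of 55.

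The calls are given by module as counts, with no test between modules. In complex I, 8 of the 10 tested members of the NADH-oxidising N module and 14 of the 19 of the membrane arm were lower, against 2 of the 6 of the quinone-binding Q module. Ndufa5, a Q module subunit, had 226 to 405 CPM (median 257) in microglia and 801 to 1259 CPM (median 875) in nonmicroglia, a log2 difference of -1.75 ± 0.25 (adjusted p = 8.1e-09). The ranges did not overlap. In complex III, all 5 small subunits but only 1 of the 4 catalytic and core subunits (Cyc1) passed. DESeq2 also called Uqcrc1 and Uqcrfs1 of the core, and the call of Cyc1 was lost in 4 of 5 fits that left out 1 animal. Among the small subunits, Uqcr10 had 132 to 168 CPM (median 138) in microglia and 325 to 690 CPM (median 534) in nonmicroglia (-1.72 ± 0.29, adjusted p = 4.4e-07). In complex V, all 3 small membrane subunits and both tested genes of the proton-carrying c ring, Atp5g1 and Atp5g3, were lower. Atp5g3 had 559 to 998 CPM (median 793) in microglia and 1253 to 2496 CPM (median 1605) in nonmicroglia (-1.18 ± 0.25, adjusted p = 5.8e-05).

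Complex IV held both the lowest and the highest differences of all members. Of its 10 common subunits, 9 were lower. Cox6c, a small subunit around the catalytic core, had 272 to 408 CPM (median 345) in microglia and 906 to 1818 CPM (median 1751) in nonmicroglia (-2.17 ± 0.24, adjusted p = 5.3e-13). Larger differences were seen for 3 isoforms known from muscle, heart or testis, whose levels in microglia were close to 0. Cox8b had 0 to 5.2 CPM there and 16.9 to 211 CPM in nonmicroglia (-5.31 ± 0.78, adjusted p = 9.3e-08), Cox7a1 had 0 to 5.80 against 23.4 to 79.1 CPM (-3.60 ± 0.85, adjusted p = 0.00040), and Cox6b2 had 0 to 4.38 against 11.7 to 46.5 CPM (-5.45 ± 1.05, adjusted p = 1.4e-05). The ranges of these 3 genes did not overlap.

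The 2 members higher in microglia were also of complex IV. Cox6a2, the heart and muscle isoform of subunit 6a, had 0 to 30.1 CPM (median 7.52) in microglia and 0 to 1.95 CPM (median 0.439) in nonmicroglia (4.36 ± 1.01, adjusted p = 0.00031). Its ranges overlapped, since 1 microglia library was at 0. Cox7a2l, which joins complexes III and IV into supercomplexes, had 63.6 to 99.6 CPM in microglia and 7.07 to 35.2 CPM in nonmicroglia (1.57 ± 0.42, adjusted p = 0.0020), with no overlap. The succinate dehydrogenase genes of complex II, which also serve the citric acid cycle, showed differences near 0 for the 2 catalytic subunits. Sdha had 110 to 313 CPM (median 181) in microglia and 177 to 221 CPM (median 198) in nonmicroglia, and the difference was -0.02 ± 0.26. Sdhb had 76.4 to 161 CPM (median 103) in microglia and 107 to 154 CPM (median 135) in nonmicroglia, with a difference of -0.22 ± 0.27.

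**Figure D1:**
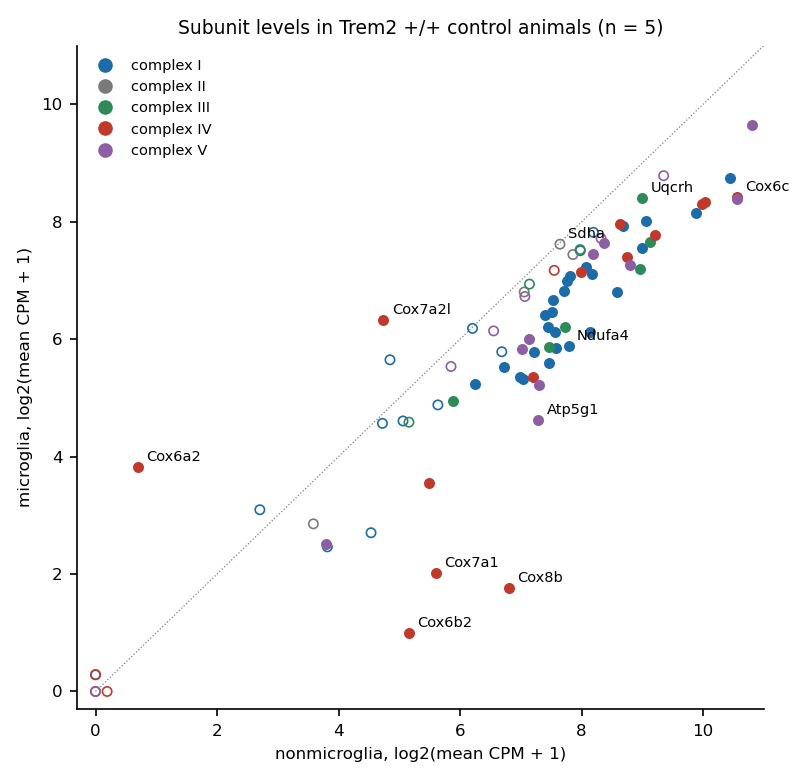
Mean level of each member in Trem2 +/+ control animals (n = 5), as log2(CPM + 1) in nonmicroglia on the x axis and in microglia on the y axis, both fractions scaled together. Points are genes coloured by complex, filled points passed the test, and the dotted line marks equal levels; most points lie below the line, while Cox6a2 and Cox7a2l lie above it.

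Subunits of complexes I, III, IV and V were higher in microglia after 5 weeks of cuprizone. Averaged over the 3 genotypes, 12 of the 78 tested members were higher on cuprizone and 0 were lower, where 1.33% of all 14087 genes tested were higher. The median log2 difference of the tested members was 0.48 and 70 of the 78 were above 0, while the median of all genes was -0.00. By complex, the medians were 0.42 in complex I, 0.01 in complex II, 0.32 in complex III, 0.75 in complex IV and 0.53 in complex V. All 14 tested members of complex IV were above 0, and 5 of them passed. Of the 84 members, 6 did not pass the count filter in microglia: Ndufa4l2, Cox4i2, Cox7b2, Cox8b, Cox8c and Atp5g2.

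Among the 5-week calls in complex I, Ndufa3 and Ndufa7 moved the most. Ndufa3, a membrane arm subunit, had 62.1 to 134 CPM (median 109) in the 9 control libraries and 131 to 302 CPM (median 242) in the 9 cuprizone libraries. The ranges met only at their edges, and the difference was 1.10 ± 0.21 (adjusted p = 0.00052). Ndufa7, of the N module, had 35.4 to 140 CPM (median 57.9) on control and 86.3 to 195 CPM (median 141) on cuprizone (1.06 ± 0.24, adjusted p = 0.0084). Ndufa2, also of the N module, rose by less, 0.64 ± 0.17. In complex III both calls were small subunits next to the core: Uqcrq (0.80 ± 0.18) and Uqcrb (0.95 ± 0.25).

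In complex IV the 5-week calls were 4 common subunits and Cox6a2. Cox6c had 266 to 506 CPM (median 400) on control and 360 to 913 CPM (median 733) on cuprizone (0.77 ± 0.17, adjusted p = 0.0046). Cox6b1, which faces the intermembrane space, had 176 to 359 CPM (median 244) and 266 to 609 CPM (median 427), a difference of 0.76 ± 0.17 (adjusted p = 0.0063). The upper part of each control range overlapped the lower part of the cuprizone range. Cox6a1, the ubiquitous isoform of subunit 6a, and Cox8a rose by 0.74 ± 0.18 and 0.75 ± 0.19. In complex V, Atp5e, the epsilon subunit of the F1 stalk, had 109 to 238 CPM (median 149) on control and 239 to 451 CPM (median 300) on cuprizone. No cuprizone library was below the highest control library, and the difference was 0.97 ± 0.18 (adjusted p = 0.00062). Atp5k, the e subunit of the membrane part, rose by 0.73 ± 0.20. Some calls depended on single libraries: over 18 fits that each left out 1, Atp5k was lost in 12, Uqcrb in 9, Ndufa2 in 8 and Cox8a in 7. Leaving out 1 library at a time gave 6 to 12 calls, with 6 without animal 310 (Trem2 -/-, cuprizone), 7 without animal 1106 (Trem2 +/-, cuprizone) and 7 without animal 1104 (Trem2 -/-, control).

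**Figure D2:**
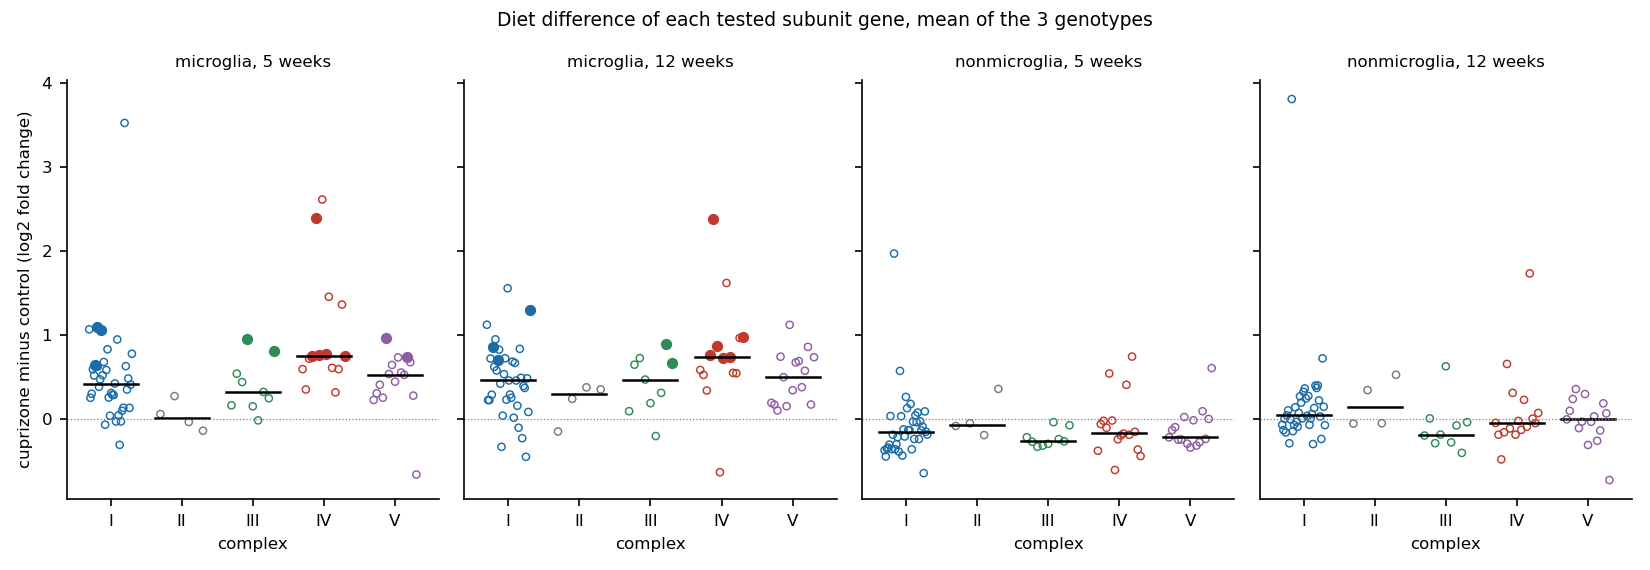
Log2 fold change of each tested member, cuprizone minus control, averaged over the 3 genotypes, by complex, in both fractions and at both times. Filled points passed the test and black lines are medians; in microglia the medians of complexes I, III, IV and V lie above 0 at both times, and no nonmicroglia point is filled.

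After 12 weeks of cuprizone, 11 of the 78 tested members were higher in microglia and 0 were lower, averaged over the genotypes, against 2.04% of all genes higher. The median difference was 0.49, 71 of 78 members were above 0, and all genes had a median of 0.01. Medians by complex were 0.46, 0.30, 0.47, 0.73 and 0.50 from complex I to V. In complex I the N module subunits Ndufv3 (1.29 ± 0.26), Ndufa2 (0.85 ± 0.17) and Ndufa6 (0.70 ± 0.17) rose. Of the 19 membrane arm members 0 passed with edgeR, while DESeq2 called Ndufa1, Ndufb8 and Ndufa3, and the modules were not tested against each other. In complex III, Uqcrh, the acidic hinge protein next to cytochrome c1, had 211 to 446 CPM (median 287) in 9 control libraries and 337 to 689 CPM (median 554) in 10 cuprizone libraries. The difference was 0.89 ± 0.16 (adjusted p = 0.00020), and the ranges overlapped between 337 and 446 CPM.

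Complex IV again gave the largest number of calls at 12 weeks, 6 of 14. Cox8a had 133 to 437 CPM (median 256) on control and 239 to 819 CPM (median 572) on cuprizone (0.97 ± 0.20, adjusted p = 0.00094). Cox6b1 had 110 to 280 CPM (median 158) and 191 to 561 CPM (median 327), a difference of 0.86 ± 0.18 (adjusted p = 0.0011). Cox6a1 (0.76 ± 0.19), Cox7a2 (0.74 ± 0.21) and Cox6c (0.73 ± 0.17) rose by similar amounts, and Cox6a2 by more. Over 19 fits that each left out 1 library, the call of Cox7a2 was lost in 12 and that of Uqcrq in 6. Of the 15 tested members of complex V 0 passed edgeR's test at 12 weeks, DESeq2 called Atp5h, and all 15 were above 0. The calls at both times shared 7 genes, 7 of the 12 at 5 weeks and 7 of the 11 at 12 weeks: Ndufa2, Uqcrq, Cox6a1, Cox6a2, Cox6b1, Cox6c and Cox8a. The animals of the 2 times are different animals with their own controls.

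The catalytic and core subunits, and the isoforms that are not common to all tissues, did not pass edgeR's test in these comparisons over the genotypes, apart from Cox6a2. Ndufs1, the largest iron-sulfur subunit of complex I, had 15.4 to 51.6 CPM (median 34.0) on control and 15.7 to 37.6 CPM (median 23.5) on cuprizone at 5 weeks, a difference of -0.31 ± 0.38. Ndufv1, which binds NADH, had differences of 0.13 ± 0.50 and 0.48 ± 0.51 at 5 and 12 weeks. Sdha, the flavoprotein of complex II, had 103 to 204 CPM (median 164) on control and 73.9 to 224 CPM (median 159) on cuprizone at 5 weeks, and the differences were 0.06 ± 0.18 and -0.15 ± 0.19. Those of Sdhb were 0.27 ± 0.19 and 0.24 ± 0.19. In complex III, the Rieske protein Uqcrfs1 had 0.32 ± 0.20 and 0.31 ± 0.20, Uqcrc1 had 0.15 ± 0.47 and 0.19 ± 0.48, and Cyc1 had 0.16 ± 0.51 and 0.09 ± 0.54. These standard errors are wide for the low genes, so that changes of the size seen in the called members could not be told from 0 there.

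In complex IV, Cox4i1, the largest nuclear-encoded subunit, had 87.8 to 204 CPM (median 117) on control and 140 to 321 CPM (median 182) on cuprizone at 5 weeks. Its differences were 0.59 ± 0.18 (adjusted p = 0.088) and 0.58 ± 0.19 (adjusted p = 0.074), short of the threshold at both times with edgeR, while DESeq2 called it at both (adjusted p = 0.016 and 0.015). Cox5a had 0.35 ± 0.23 and 0.52 ± 0.23, and Cox5b had 0.72 ± 0.51 and 0.34 ± 0.52. Ndufa4, counted here by its name with complex I, had 14.04 to 128 CPM (median 56.1) and 29.1 to 136 CPM (median 105) at 5 weeks, with differences of 0.62 ± 0.37 and 0.95 ± 0.37. In complex V, the catalytic pair Atp5a1 (0.23 ± 0.17 and 0.19 ± 0.17) and Atp5b (0.31 ± 0.18 and 0.17 ± 0.18) had differences within 2 standard errors of 0. Of the genes of the c ring, Atp5g3 had 0.44 ± 0.17 and 0.34 ± 0.17, and Atp5g1 had 0.64 ± 0.53 and 1.12 ± 0.59. The isoforms Cox7a1 and Cox6b2 stayed at or below 8.69 CPM in the 5-week libraries, and Cox8b at or below 5.09 CPM.

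The count of 12-week calls was 6 without animal 9145 and 3 without all 4 microglia libraries that stand apart, in place of 11. The test of the change in the diet difference from 5 to 12 weeks called 0 of 78 members, and 0 by DESeq2 or limma-voom, where 0.0071% of all genes were called. An unadjusted p under 0.05 was seen for 5.52% of all genes and for 2 members. The smallest p was that of Uqcrh, with 0.65 ± 0.23 (adjusted p = 0.61), and Atp5e of complex V had -0.47 ± 0.26 (adjusted p = 0.97).

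The start of genes called in microglia on cuprizone was read from RefSeq (GRCm38.p6), because members of this family are known to share binding sites for nuclear respiratory factors and ETS proteins. Stretches of 150 bases of 6 genes are shown, each from 100 bases before the start of transcription to 50 bases after it, 5′ to 3′ on the gene's strand. Capitals mark CTTCCGG, which is the ETS-type motif CCGGAAG read on the other strand, and the sixth gene, Ndufa3, has no match and is shown for contrast.
Cox6a1 (chr5:115348909-115349058, minus strand): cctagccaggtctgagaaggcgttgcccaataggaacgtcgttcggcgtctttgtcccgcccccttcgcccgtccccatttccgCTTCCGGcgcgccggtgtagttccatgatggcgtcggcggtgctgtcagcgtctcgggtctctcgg
Cox6b1 (chr7:30626065-30626214, minus strand): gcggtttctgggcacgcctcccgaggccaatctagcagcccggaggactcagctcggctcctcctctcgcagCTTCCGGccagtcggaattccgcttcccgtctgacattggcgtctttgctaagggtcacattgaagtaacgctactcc
Cox8a (chr19:7217567-7217716, minus strand): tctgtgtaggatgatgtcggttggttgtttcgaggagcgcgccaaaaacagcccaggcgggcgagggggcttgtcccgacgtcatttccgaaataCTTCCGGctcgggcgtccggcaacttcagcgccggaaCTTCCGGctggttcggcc
Uqcrh (chr4:116075021-116075170, minus strand): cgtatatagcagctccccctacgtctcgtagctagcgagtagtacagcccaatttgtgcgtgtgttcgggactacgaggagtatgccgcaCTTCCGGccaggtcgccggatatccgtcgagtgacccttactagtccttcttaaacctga
Atp5k (chr5:108434350-108434499, minus strand): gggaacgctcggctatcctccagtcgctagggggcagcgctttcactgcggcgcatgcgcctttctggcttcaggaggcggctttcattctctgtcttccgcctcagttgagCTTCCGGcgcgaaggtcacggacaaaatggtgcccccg
Ndufa3 (chr7:3617273-3617422, plus strand): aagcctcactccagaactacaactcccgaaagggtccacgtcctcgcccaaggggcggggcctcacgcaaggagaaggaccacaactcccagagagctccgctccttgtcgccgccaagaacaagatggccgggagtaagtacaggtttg

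Over windows of 300 bases (250 before and 50 after a start), the table of promoters held 71 windows for 66 of the 84 members, and 32851 windows in all. On both strands, CCGGAAG was present in 16 of the 71 member windows (22.54%) and in 8.858% of all windows. TGCGCA, the core of the nuclear respiratory factor 1 site, was present in 18 of 71 (25.35%) and in 7.759% of all. AAGATGGCG, a YY1-type motif, was present in 7 of 71 (9.859%) and in 1.403% of all. No searched motif contains another, and a match is not a shown binding site. Of the 16 genes called in microglia at either time, 11 have a window. Of these 11, 6 held CCGGAAG (Cox6a1, Cox6b1, Cox8a, Uqcrh, Atp5e and Atp5k), 2 held TGCGCA (Ndufa6 and Cox6a1) and 0 held AAGATGGCG.

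Summed levels were also taken for each complex. In microglia at 5 weeks, complex IV went from 2157 ± 449 CPM (SD, n = 9) on control to 3480 ± 684 CPM (n = 9) on cuprizone, and complex I from 3981 ± 795 to 5587 ± 1295 CPM. At 12 weeks, complex IV had 1753 ± 490 CPM (n = 9) and 3144 ± 884 CPM (n = 10), and complex I 3259 ± 866 and 4994 ± 1161 CPM. Averaged over genotypes on the log2 scale, the 5-week differences were 0.48 for complex I, 0.06 for complex II, 0.43 for complex III, 0.69 for complex IV and 0.45 for complex V. The 12-week differences were 0.60, 0.15, 0.59, 0.78 and 0.41 in the same order. In this average over genotypes, complex II moved least at both times. It had 476 ± 104 and 496 ± 110 CPM at 5 weeks and 429 ± 84 and 493 ± 57 CPM at 12 weeks. Counting Ndufa4, now held to be a complex IV subunit, with complex IV left all of these within the spread of the replicates.

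**Figure D3:**
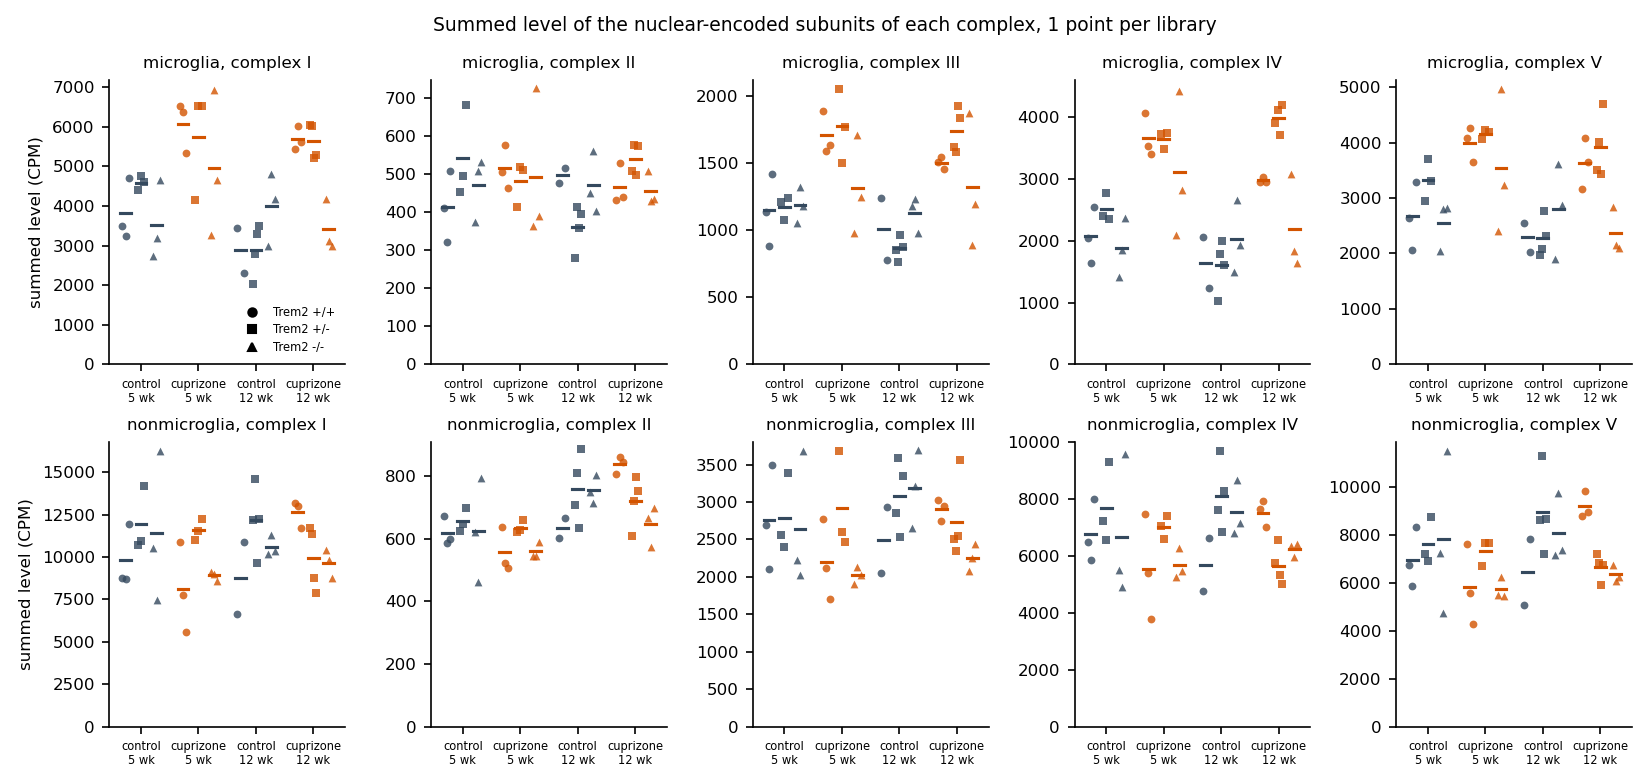
Summed level (CPM) of the members of each complex, 1 point per library, in microglia (top row) and nonmicroglia (bottom row). Marker shape gives the genotype, orange is cuprizone, and short lines are group means; averaged over genotypes in microglia, the log2 difference on cuprizone is 0.69 and 0.78 for complex IV and 0.06 and 0.15 for complex II at 5 and 12 weeks.

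The genotypes were then compared separately. At 5 weeks no member passed the test within a genotype in microglia. In Trem2 +/+, 0 of 78 passed, with 22 at an unadjusted p under 0.05, all of them higher, and 3 by DESeq2 and 3 by limma-voom, where 0.142% of all genes passed. In Trem2 +/-, 0 passed, with 17 at an unadjusted p under 0.05, 4 by DESeq2 and 0 by limma-voom, against 0.277% of all genes. In Trem2 -/-, 0 passed, with 15 at an unadjusted p under 0.05, 1 by DESeq2 and 0 by limma-voom, against 0.0568%. Of all genes, 6.82%, 8.15% and 6.71% were at an unadjusted p under 0.05 in Trem2 +/+, +/- and -/-. The median differences of the members were 0.62, 0.35 and 0.46, so that the 3 genotypes lay on the same side of 0. Complex IV had medians of 0.86, 0.64 and 0.77. The members with the smallest p were Atp5c1 in Trem2 +/+ (1.72 ± 0.47, adjusted p = 0.16), Atp5e in Trem2 +/- (1.27 ± 0.32, adjusted p = 0.066) and Atp5h in Trem2 -/- (1.23 ± 0.40, adjusted p = 0.63).

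At 12 weeks the values of the 3 genotypes are given side by side, and the tests between them follow. In Trem2 +/- animals, 23 of 78 members were higher on cuprizone and 0 were lower (n = 4 against 4), where 1.88% of all genes were higher. The calls were 8 of complex I, 4 of complex III, 7 of complex IV and 4 of complex V. The median difference was 0.94, with 1.27 for complex IV, 0.92 for complex III, 0.83 for complex V, 0.72 for complex I and 0.53 for complex II. All 12 genes called over the genotypes at 5 weeks were among the 23, and the 2 sets share no animal.

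Within Trem2 +/- animals at 12 weeks, Cox6b1 had 130, 201, 110 and 143 CPM on control and 439, 533, 561 and 488 CPM on cuprizone. Every cuprizone value was above every control value, and the difference was 1.80 ± 0.27 (adjusted p = 6.7e-06). Cox8a had 213, 256, 370 and 177 CPM on control and 708, 763, 678 and 819 CPM on cuprizone (1.55 ± 0.29, adjusted p = 0.00046), again without overlap. Uqcrq, a small subunit of complex III at its quinone side, had 150, 119, 119 and 141 against 344, 255, 442 and 433 CPM (1.48 ± 0.28, adjusted p = 0.00047). All 4 calls of complex III were among its 5 small subunits (Uqcr11, Uqcrb, Uqcrh and Uqcrq), and none among its 4 catalytic and core subunits.

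Of complexes I and V, 8 of 36 and 4 of 15 tested members were called in these 8 animals, while Ndufa9 (-0.68), Ndufs1 (-0.43) and Atp5b (-0.31) had differences below 0. Ndufa2 had 236, 169, 148 and 205 CPM on control and 478, 437, 438 and 321 CPM on cuprizone (1.14 ± 0.25, adjusted p = 0.0038). Ndufb11, a membrane arm subunit encoded on the X chromosome, had 16.5, 53.5, 25.3 and 32.7 CPM on control and 83.1, 127, 107 and 130 CPM on cuprizone (1.85 ± 0.44, adjusted p = 0.0068). Neither gene's groups overlapped. Atp5e had 100, 150, 137 and 140 CPM on control and 369, 399, 310 and 396 CPM on cuprizone (1.48 ± 0.28, adjusted p = 0.00046). Atp5k (1.59 ± 0.31), Atp5h, a subunit of the peripheral stalk (1.43 ± 0.35), and Atp5j2, the f subunit of the membrane part (1.19 ± 0.26), also rose. The remaining calls were Ndufa3, Ndufa6, Ndufa7, Ndufb5, Ndufs7, Ndufv3, Cox6a1, Cox6a2, Cox6c, Cox7a2 and Cox7b. Without animal 7674, 16 members passed. Over 8 fits that each left out 1 library, the call of Ndufv3 was lost in 7, Cox7b in 6 and Ndufs7 in 5.

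In Trem2 +/+ animals at 12 weeks, 0 of 78 members passed, with 2 controls against 3 cuprizone animals. There were 20 at an unadjusted p under 0.05 (19 higher and 1 lower), where 10.9% of all genes were. DESeq2 called 6 and limma-voom 0, and 0.958% of all genes passed edgeR's test. The median difference was 0.63 and 66 of 78 were above 0. The member with the smallest p was Ndufa1, a small membrane arm subunit encoded on the X chromosome, with 272 and 130 CPM on control and 1238, 1268 and 1455 CPM on cuprizone (2.89 ± 0.76, adjusted p = 0.076). The groups did not overlap, and only 2 controls carry this comparison. Sdha was the 1 member lower at an unadjusted p under 0.05, with -0.83 ± 0.35 (adjusted p = 0.36).

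In Trem2 -/- animals at 12 weeks, 0 of 78 passed, and 0 by DESeq2 or limma-voom, where 0.0284% of all genes passed. An unadjusted p under 0.05 was seen for 7.44% of all genes and for 5 members (2 higher and 3 lower). The median difference was -0.08 and 32 of 78 were above 0. Medians were -0.27 in complex I, 0.01 in complex II, -0.06 in complex III, 0.23 in complex IV and -0.19 in complex V. Cox6b1 had 158, 227 and 193 CPM on control and 336, 198 and 191 CPM on cuprizone, and Ndufb11 had 36.2, 90.7 and 62.8 CPM against 17.7, 38.9 and 23.5 CPM. The groups of both genes overlapped. Uqcrh had the smallest p, with 0.76 ± 0.28 (adjusted p = 0.62).

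The summed levels at 12 weeks show the same by animal. Complex IV had 2064 and 1232 CPM in the Trem2 +/+ controls and 2952, 3038 and 2949 CPM on cuprizone. In Trem2 +/- it had 1021, 1783, 1999 and 1601 CPM on control and 3911, 4113, 3717 and 4203 CPM on cuprizone, and neither genotype's groups overlapped. In Trem2 -/- it had 1489, 2667 and 1924 CPM on control and 3081, 1841 and 1637 CPM on cuprizone, which overlap. The log2 differences of complex IV were 0.90, 1.36 and 0.09 in Trem2 +/+, +/- and -/-. Those of complex I were 1.01, 0.99 and -0.21, and of complex II -0.09, 0.59 and -0.04. Complex III had 0.61, 1.01 and 0.16, and complex V had 0.67, 0.78 and -0.21. These sums carry no test.

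**Figure D4:**
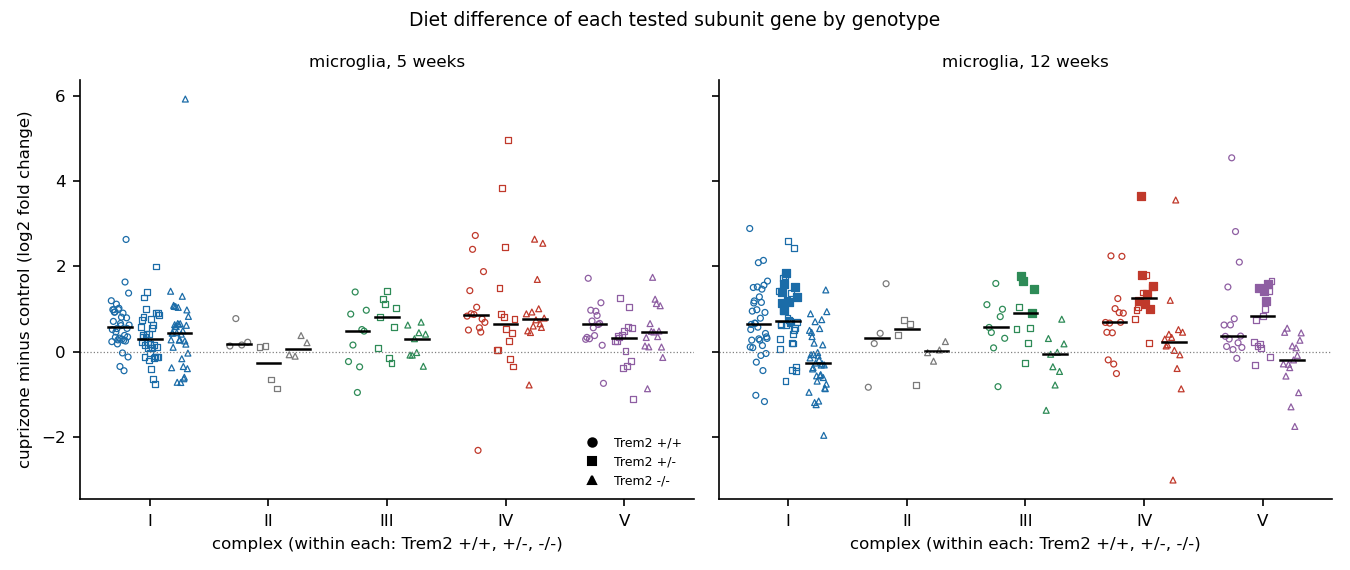
Log2 fold change of each tested member in microglia, cuprizone minus control, by complex and within each complex by genotype, at 5 and 12 weeks. Filled markers passed the test and black lines are medians; all 23 filled markers are Trem2 +/- at 12 weeks, and the Trem2 -/- medians at 12 weeks lie between -0.27 and 0.23.

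The difference in diet response between genotypes was tested itself. Trem2 -/- minus Trem2 +/+ at 12 weeks called 0 of 78 members, and 3 by DESeq2 and 0 by limma-voom, where 0.0284% of all genes were called. An unadjusted p under 0.05 was seen for 10.6% of all genes and for 18 members, all lower. The median was -0.63 and 63 of 78 were below 0, against a median of -0.13 for all genes. In nonmicroglia of the same animals this contrast had a similar median of -0.59, with 68 of 81 below 0, against -0.06 for all genes. Both contrasts rest on the same 2 Trem2 +/+ control animals. Ndufa1 had the smallest p in it, with -3.84 ± 0.96 (adjusted p = 0.13). Trem2 -/- minus Trem2 +/- at 12 weeks, a contrast added after the values had been seen, called 1 member, Ndufb11 (-3.09 ± 0.66, adjusted p = 0.030), where 0.128% of all genes were lower. In it, 35 members had an unadjusted p under 0.05, all lower, where 9.86% of all genes had one. DESeq2 called 7 members, Ndufb11 among them, and limma-voom 1, which was Cox7a2. Ndufb11 did not pass with limma-voom (adjusted p = 0.19), with the noncoding share as a covariate (0.054) or without the libraries that stand apart (0.11). The call of Ndufb11 was lost in 6 of 14 fits that left out 1 library.

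Genotypes compared within a diet gave no calls in microglia. On control chow, Trem2 -/- minus Trem2 +/+ called 0 members, with 4 at an unadjusted p under 0.05 and 0 by DESeq2 or limma-voom, where 0.0142% of all genes were called, and the median was 0.13. After 5 weeks of cuprizone 0 were called, with 7 at an unadjusted p under 0.05 and 0 by either other tool, against 0.0781% of all genes, and the median was -0.20. After 12 weeks of cuprizone 0 were called, with 18 at an unadjusted p under 0.05, of which 17 lower, 1 by DESeq2 and 0 by limma-voom, against 0.44%. The median at 12 weeks was -0.39 and 63 of 78 members were below 0. Of all genes, 5.25% on control chow, 5.14% at 5 weeks of cuprizone and 9.85% at 12 weeks were at an unadjusted p under 0.05. At 12 weeks the members with the smallest p were Atp5l, the g subunit of complex V, with -1.98 ± 0.63, and Ndufa1, with -2.06 ± 0.62 (both adjusted p = 0.19). Trem2 +/- minus Trem2 +/+ over all diets and times called 0, and 0 by either other tool, against 0.0071% of all genes. An unadjusted p under 0.05 was seen for 8.17% of all genes and for 6 members.

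Cox6a2 had the largest difference among the members called over the genotypes. In microglia it had 0 to 46.0 CPM (median 7.36) on control and 21.7 to 163 CPM (median 48.2) on cuprizone at 5 weeks, a difference of 2.39 ± 0.53 (adjusted p = 0.010). At 12 weeks it had 1.85 to 25.1 CPM (median 10.2) and 14.8 to 228 CPM (median 80.9), a difference of 2.37 ± 0.57 (adjusted p = 0.012). The ranges overlapped at both times. In Trem2 +/- animals at 12 weeks it had 14.8, 16.8, 6.95 and 7.33 CPM on control and 74.9, 125, 215 and 228 CPM on cuprizone (3.66 ± 0.84, adjusted p = 0.0090). In Trem2 -/- animals it had 5.93, 17.6 and 10.2 CPM on control and 44.7, 14.8 and 31.3 CPM on cuprizone (1.21 ± 0.91, adjusted p = 0.82). In Trem2 +/+ animals it had 25.1 and 1.85 CPM on control and 87.0, 127 and 45.0 CPM on cuprizone. All 3 Trem2 -/- animals on cuprizone thus lay below the other 7 at this time, and their difference from Trem2 +/+ was -1.51 ± 0.87 (adjusted p = 0.56). The diet differences of Trem2 -/- and Trem2 +/- differed by -2.46 ± 1.2 (adjusted p = 0.50).

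Cox6a2 lies at chr7:128205435-128206387 on the minus strand (GRCm38, GENCODE M21), inside the span of Itgad, an integrin gene on the plus strand. The sources used here do not say whether counting used the strand. Itgad itself had no count in 35 of the 37 microglia libraries, and the other 2 had 15.4 and 0.767 CPM. Itgax, a nearby integrin gene that encodes CD11c of activated microglia, rose in the same contrasts, by 3.04 ± 0.39 at 5 weeks and 3.53 ± 0.41 at 12 weeks. At 12 weeks Itgax had a difference of 1.80 ± 0.66 (adjusted p = 0.64) in Trem2 -/- animals and rose by 4.55 ± 0.6 in Trem2 +/- animals. On cuprizone at 12 weeks Itgax had 49.9, 25.2 and 47.0 CPM in Trem2 -/- animals and 590, 499 and 350 CPM in Trem2 +/+ animals. Whether the level of Cox6a2 is bound to that of its neighbour was not tested. Cox6a1, the other isoform, had 110 to 231 CPM on control and 207 to 510 CPM on cuprizone at 5 weeks, and 82.6 to 221 and 176 to 402 CPM at 12 weeks.

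**Figure D5:**
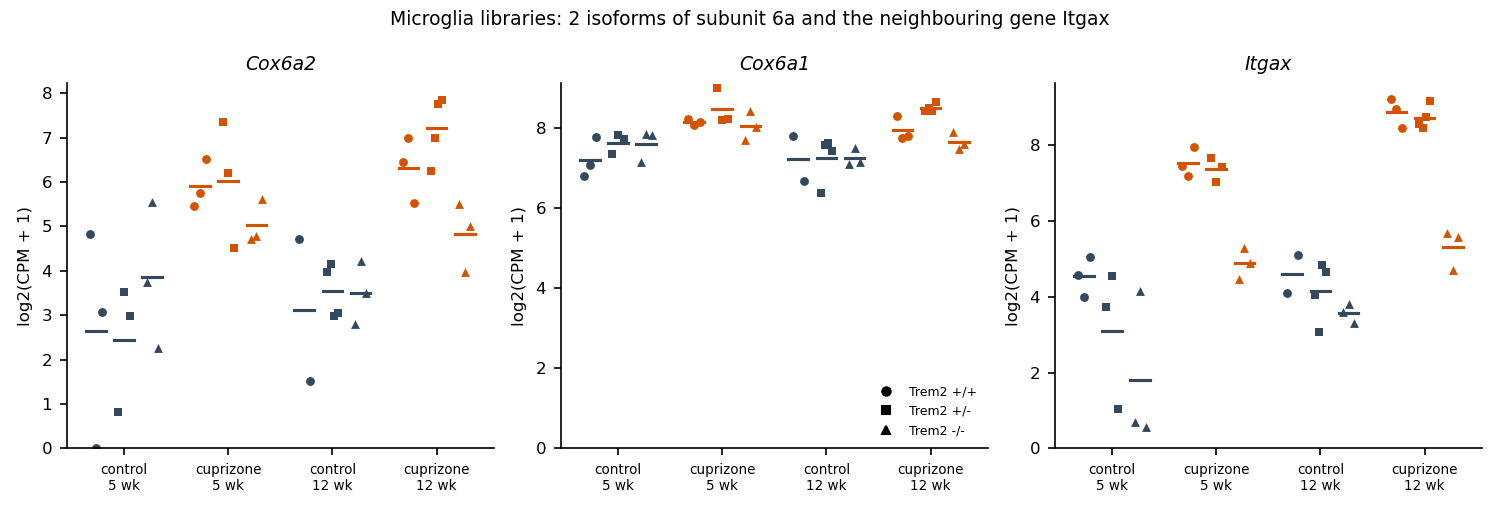
Levels of Cox6a2, Cox6a1 and Itgax in each microglia library as log2(CPM + 1), by diet, time and genotype, with group means of the log values as lines. Cox6a2 is higher on cuprizone at both times; at 12 weeks the 3 Trem2 -/- libraries on cuprizone lie at 14.8 to 44.7 CPM, below the other 7.

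In nonmicroglia no member was called in any of the 14 comparisons. For the diet averaged over genotypes, 0 of 81 tested members passed at 5 weeks, and 0 by DESeq2 or limma-voom, where 0.443% of all 16915 genes passed. An unadjusted p under 0.05 was seen for 7.58% of all genes and for 6 members, all lower. The median was -0.19, against 0.05 for all genes, and Ndufa5 had the smallest p (-0.36 ± 0.14, adjusted p = 0.42). At 12 weeks 0 passed, and 0 by either other tool, against 0.497% of all genes, and the median was 0.00. An unadjusted p under 0.05 was then seen for 8.41% of all genes and for 5 members (3 higher, 2 lower). Summed complex IV had 7060 ± 1635 CPM (n = 9) on control and 6086 ± 1212 CPM (n = 9) on cuprizone at 5 weeks, and 7394 ± 1411 (n = 9) and 6401 ± 939 CPM (n = 10) at 12 weeks. The ranges overlapped at both times, and averaged over genotypes the log2 differences of the 5 summed complexes lay between -0.23 and 0.05. At 12 weeks the genotypes lay on opposite sides of 0, and these sums carry no test. From complex I to V, Trem2 +/+ had 0.57, 0.41, 0.24, 0.42 and 0.54. Trem2 +/- had -0.30, -0.08, -0.18, -0.51 and -0.41, and Trem2 -/- had -0.13, -0.23, -0.49, -0.27 and -0.33.

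Within genotypes of nonmicroglia, DESeq2 and limma-voom also called 0 members in each diet comparison. At 5 weeks the members at an unadjusted p under 0.05 numbered 4 of 81 in Trem2 +/+, 1 in Trem2 +/- and 2 in Trem2 -/-. Of all genes, 5.87%, 4.83% and 2.89% were at that unadjusted p, and 0.0414%, 0.0591% and 0.0296% passed after adjustment. At 12 weeks these members numbered 7, 9 and 6, where 6.05%, 8.90% and 5.25% of all genes were at that p. After adjustment 0.0828%, 0.142% and 0.0355% of all genes passed. The 12-week medians were 0.42 in Trem2 +/+, -0.13 in Trem2 +/- and -0.17 in Trem2 -/-. The smallest p among them was that of Cox7a2 in Trem2 +/- animals, with -0.75 ± 0.22 (adjusted p = 0.19). Ndufa4l2, an isoform of Ndufa4 known for its response to low oxygen, had 0 to 11.5 CPM (median 0) on control and 0 to 12.7 CPM (median 1.51) on cuprizone at 12 weeks, a difference of 3.8 ± 1.58 (adjusted p = 0.43). In Trem2 +/+ and in Trem2 -/- animals a whole diet group was at 0 for this gene, so the size of that difference is poorly defined.

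The other nonmicroglia comparisons also gave 0 calls by edgeR, DESeq2 and limma-voom. The change from 5 to 12 weeks had 3 members at an unadjusted p under 0.05, where 4.23% of all genes were, and 0.00591% were called. Trem2 -/- minus Trem2 +/+ had 6 on control chow, 1 after 5 weeks of cuprizone and 7 after 12 weeks. Of all genes, 4.91%, 2.45% and 4.28% were at that unadjusted p, and 0.00591%, 0% and 0% were called. The difference of the 12-week diet response, Trem2 -/- minus Trem2 +/+, had 8, all lower. Its member median was -0.59 and 68 of 81 members were below 0, against a median of -0.06 for all genes. Here 5.62% of all genes were at that p and 0% were called. Trem2 +/- minus Trem2 +/+ had 10, all higher, with a member median of 0.17, where 5.47% of all genes were at that p and 0% were called.

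The diet difference of microglia was then set against that of nonmicroglia in 1 fit. At 5 weeks 5 of 81 members responded more in microglia, where 0.277% of all 18408 genes did, and 0 responded less. These were Ndufa3 (1.43 ± 0.29, adjusted p = 0.0035), Ndufa7 (1.25 ± 0.31), Cox6c (1.003 ± 0.23), Cox8a (1.11 ± 0.25) and Atp5e (1.19 ± 0.27). At 12 weeks 5 of 81 responded more, against 0.505% of all genes, and 0 less: Uqcrh (1.28 ± 0.23, adjusted p = 0.00019), Ndufv3 (1.40 ± 0.33), Cox8a (1.02 ± 0.26), Cox6b1 (0.95 ± 0.25) and Cox6c (0.87 ± 0.24). Cox6c and Cox8a were called at both times. With the animal as a block, 8 members were called at 5 weeks and 5 at 12 weeks, but Cox6b1 was then not among the 5 (adjusted p = 0.065). With 1 animal left out at a time, the 12-week calls of Cox6b1 and Cox6c were lost in 14 and 12 of 19 fits, and the 5-week call of Ndufa7 in 10 of 18. At 5 weeks 2 remained called in number without animal 310, 9144 or 9546, and at 12 weeks 1 without animal 9145.

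Other genes of the same machinery were read from lists of known members. In microglia over the genotypes, 3 of the 8 tested genes of the 13 mitochondrially encoded subunits rose at 5 weeks (mt-Nd1 by 0.98 ± 0.24, mt-Nd5 by 0.77 ± 0.19 and mt-Cytb by 0.65 ± 0.18), and 1 at 12 weeks (mt-Nd6, by 1.0002 ± 0.23). Of 23 tested assembly factors of complex IV, 1 rose at 5 weeks (Coa5, 1.03 ± 0.22) and 0 at 12 weeks. Of 10 genes of mitochondrial copper delivery, 0 rose at 5 weeks and 1 at 12 weeks, Slc25a3, a carrier of phosphate and copper (0.74 ± 0.18). None of the tested assembly factors of complexes I, II, III and V and none of 16 regulators of mitochondrial biogenesis passed at either time.

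Genes of neighbouring pathways were counted in the same way, beside the 1.33% (5 weeks) and 2.04% (12 weeks) of all genes that were higher. Of 14 glycolysis genes, 3 rose at 5 weeks (Pkm, Tpi1 and Gpi1) and 4 at 12 weeks (Aldoa as well), and Pkm rose by 1.32 ± 0.25 and 1.41 ± 0.26. Of 13 genes of the citric acid cycle, 0 rose at 5 weeks and 1 at 12 weeks (Mdh2, 0.60 ± 0.18). Of 85 tested genes of cytosolic ribosomal proteins, a list added after the data had been seen, 13 rose and 0 fell at 5 weeks, and 23 rose and 1 fell at 12 weeks. Their medians, 0.66 and 0.72, were above those of the subunits, and in Trem2 -/- animals at 12 weeks their median was -0.00. In nonmicroglia none of the genes on these lists passed in the diet comparisons over genotypes. Between the fractions the ribosomal list went the other way from the subunits, with 29 members higher and 1 lower in microglia and a median of 0.84.

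Several other measures moved with the diet in the microglia libraries, and their part in the results was not tested. Of all 14087 genes tested over the genotypes, 188 were higher and 38 lower at 5 weeks, and 287 and 128 at 12 weeks. Of 11 microglia markers, 2 fell at 5 weeks (Cx3cr1 and Sall1) and 5 at 12 weeks, and their summed level had a range of 25747 to 43927 CPM on control and 21702 to 43337 on cuprizone at 5 weeks, and 27040 to 35540 and 17080 to 28800 at 12 weeks. The share of mitochondrially encoded counts was 2.24 ± 0.25% and 3.45 ± 0.69% at 5 weeks and 2.14 ± 0.53% and 3.07 ± 1.15% at 12 weeks. Of 7 neutrophil markers 0 passed, and their summed level had a range of 114 to 7523 CPM over the controls and 111 to 5904 CPM over the cuprizone libraries. In Trem2 +/- animals at 12 weeks it had 114 to 1871 CPM on control and 111 to 348 CPM on cuprizone, and with this sum as a covariate 15 members were called there in place of 23. Of 7 border macrophage markers 1 fell at each time (Cd163 at 5 weeks and Mrc1 at 12), with summed medians of 1055 and 770 CPM at 5 weeks and 855 and 492 CPM at 12 weeks. Of 9 endothelial markers 1 rose at each time (Flt1), and of 5 tested markers of oligodendrocyte precursors 1 rose at 12 weeks (Cspg4). The RNA integrity number was given for 44 of the 74 libraries. In microglia at 5 weeks, its ranges on control and cuprizone started at the same value and overlapped. At 12 weeks it was 8.1 to 9.6 (n = 3) on control and 7.3 to 8.1 (n = 3) on cuprizone. No Trem2 +/- microglia library of 12 weeks had a value.

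Overlapping genes limit some of these values. Of the 84 members, 37 overlap another annotated gene and 25 a protein-coding gene, 22 of them on the opposite strand. Among the called members these include Ndufa2 with Tmco6, Ndufa3 with Tfpt, Cox6c with Vps13b, Uqcrb with Gm10767 and Ndufb11 with Rbm10. For Cox6c the overlap holds the 3′ end of the gene, and tags in it cannot be told apart from the partner's if strand was not used. Ndufa2 and Tmco6 share a short stretch at the 3′ ends of both genes (chr18:36742332-36742397). Ndufa3 and Tfpt share only the last bases of both genes (chr7:3620324-3620327). Uqcrb and Ndufb11 overlap their partners only at the starts of both genes, away from the 3′ ends where tags lie. Processed pseudogenes of Uqcrh, Atp5k and Atp5l have rows of their own, with 2 to 62 counts over all 74 libraries.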

How the data were processed

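Counts of reads per gene were taken as the authors deposited them, 1 column per library. Per the submitters' processing notes, the tools named are STAR, R 3.4.3, MultiQC and FastQC 0.11.5, and the build is GRCm38.p6, and per the labels' protocols the libraries were made with a 3′ mRNA kit. For the counting program, the annotation release, whether strand was used and whether molecular identifiers were, the entry is: not given in the sources used here.

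Counts were tested with edgeR 4.0.16 in R 4.3.3 (quasi-likelihood test, robust, trimmed mean of M values). Genes were kept by edgeR's filter at a minimum count of 10. Each fraction was fitted with 12 groups and sex, and both together with 24 groups and sex. Benjamini-Hochberg adjustment covered all genes of a fit, and a call is an adjusted p under 0.05. DESeq2 1.42.0, limma-voom (limma 3.58.1), DESeq2 size factors, no filter, covariates, the animal as a block and each library left out were the alternatives. Members and lists were chosen with earlier results of these data known. Genes were named by a rule: for each complex up to 4 called members with the smallest p, all where 8 or fewer were called, the isoforms and core subunits, and in comparisons without a call the member with the smallest p. The rule asks for that member in each complex, but in most comparisons without a call the smallest over all complexes is named, and some comparisons name none. Gene positions are those of GENCODE M21, and promoters those of RefSeq (GRCm38.p6).

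Depth was 1043961 to 3945694 counts per microglia library and 1255465 to 3441041 per nonmicroglia library. The 2 fractions come from the same animals, so their numbers pair them. The correlation of their deviations from the group means was -0.041 to 0.120, and 4 of 37 animals were over 0.1. No 2 libraries of a fraction agreed within counting noise, with a lowest chi-square per degree of freedom of 8.14 over 1332 pairs. On simulated counts for the 12-week diet comparison, the fit recovered 31% of 2-fold and 66% of 4-fold changes in microglia (13017 genes) and 24% and 61% in nonmicroglia (15774 genes). Of 99 and 88 calls there, 2 and 3 were unchanged genes. The simulated libraries were independent, with a spread set by a gene's level alone and none standing apart. These shares therefore need not hold for the real libraries.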

Additional observations from a re-analysis of the deposited data

Results flagged for a closer look

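The difference in diet response between the fractions passed its own test for 5 members at each time (microglia minus nonmicroglia, log2 scale). At 5 weeks these were Ndufa3 (1.43), Ndufa7 (1.25), Atp5e (1.19), Cox8a (1.11) and Cox6c (1.003). At 12 weeks they were Ndufv3 (1.40), Uqcrh (1.28), Cox8a (1.02), Cox6b1 (0.95) and Cox6c (0.87).

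The 12-week diet response of Ndufb11 in microglia differed between Trem2 -/- and Trem2 +/- animals by -3.09 on the log2 scale, in a contrast added after the data had been seen. The response was 1.85 ± 0.44 in Trem2 +/- and -1.24 ± 0.50 in Trem2 -/- (the latter did not pass), and the call of the difference was lost in 6 of 14 fits that left out 1 library.

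In 2 groups of 4, a library lay far from the other 3. Ndufv3 had 267 CPM in the microglia of animal 9469 (Trem2 +/-, 12 weeks of cuprizone) and 163, 172 and 177 CPM in the others. Summed complex III had 3563 CPM in the nonmicroglia of the same animal and 2341, 2507 and 2545 CPM in the others. Chance gives such a gap in about 1 in 20 groups, and 46 groups of single genes and 20 of summed complexes were examined.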

How the results depend on the processing

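No called result that was followed through the alternatives changed direction, but between the fractions only 26 of the called members were followed. The summed levels of the complexes kept within the replicate spread in all 40 recomputed values. Counts of called members moved as follows, and the cause was not tested. The share of all genes called is given here for the main edgeR fits only. Whether a count from another fit exceeds the share in that fit therefore cannot be read from it. In microglia at 5 weeks, the count in Trem2 +/+ went from 0 to 3 with DESeq2, without a count filter and with limma-voom; in Trem2 +/- from 0 to 4 with DESeq2, 1 without a filter, 1 with DESeq2 size factors, 2 without the libraries that stand apart and 3 with a neutrophil covariate; in Trem2 -/- from 0 to 1 with DESeq2 and 3 without a filter. At 12 weeks, Trem2 +/+ went from 0 to 6 (DESeq2) and 4 (no filter), Trem2 +/- from 23 to 15 with the neutrophil covariate, Trem2 -/- from 0 to 1 without a filter, and the average over genotypes from 11 to 18 with DESeq2 and 3 without the libraries that stand apart.

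Trem2 -/- minus Trem2 +/+ on 12 weeks of cuprizone went from 0 to 1 (DESeq2) and 3 (no filter), and the difference of diet responses from 0 to 3 and 5. Trem2 -/- minus Trem2 +/- went from 1 to 7 (DESeq2), 5 (no filter), 0 with the noncoding share as a covariate and 0 without the libraries that stand apart. In nonmicroglia at 12 weeks, a fit without a filter called 1 member in Trem2 +/+ and 2 in Trem2 +/-. The diet difference between fractions went from 5 to 16 (DESeq2), 10 (no filter) and 8 (animal as a replicate block) at 5 weeks, and from 5 to 10 (DESeq2) and 1 (limma-voom) at 12 weeks. The block left the 12-week count at 5.

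With 1 library left out at a time, the counts had a range of 6 to 12 (5 weeks over genotypes), 6 to 13 (12 weeks), 16 to 23 (Trem2 +/- at 12 weeks), 0 to 3 (Trem2 -/- minus Trem2 +/+ on cuprizone), 0 to 2 (difference of their diet responses), 0 to 5 (Trem2 -/- minus Trem2 +/-), 0 to 1 (nonmicroglia, Trem2 +/+), 29 to 50 (fractions), 2 to 8 and 1 to 6 (diet between fractions at 5 and 12 weeks). Depth limits the low genes most, such as Cox6b2 and Cox7a1.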
